A study of Mus musculus with 6 samples.

Results

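The lysophospholipid acyltransferases are the enzymes that put a fatty acid back onto a phospholipid that has lost one. The 7 genes described here, Lpcat1, Lpcat2, Lpcat3, Lpcat4, Mboat1, Mboat7 and Lclat1, were selected from measured values of the libraries analysed, because Lpcat4 was higher in Nfkb2-/- cells, and the other 6 were taken as its relatives. They are 7 of 56748 Ensembl gene IDs counted and 7 of 21849 named genes that passed a filter of at least 50 counts over all libraries, which every one of them passed. Because the genotype contrast chose Lpcat4 and through it the family, the genotype differences of these 7 genes are given as a description. They come with standard errors and no p-value. The count of members that passed the test is set beside the share of all genes, and nothing is read from it.

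The libraries are poly(A) RNA-seq of mouse bone marrow-derived dendritic cells (BMDCs), 3 from WT mice and 3 from Nfkb2-/- mice. Bone marrow cells of both genotypes were grown for 5 days with GM-CSF at 20 ng/mL and then for 4 days with GM-CSF at 20 ng/mL and IL-4 at 10 ng/mL, 9 days in all, and were collected with no further stimulus (0 h). The study describes the knockout as global, thus not limited to dendritic cells. The study names C57/BL6 for WT marrow cultures examined by flow cytometry, while the strain of the Nfkb2-/- mice and the age and number of mice behind these libraries are not given in the sources used here. The study calls the replicates independent and biological, while the labels do not tie libraries to animals, so the spread between libraries may be partly technical. Nfkb2 encodes p100, the precursor of the p52 subunit of NF-κB. The comparison asks how the resting transcriptome differs when Nfkb2 is knocked out.

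Library totals were 43126299, 31622131 and 33211096 counts for WT replicates 1, 2 and 3, and 29863927, 31622146 and 55623068 counts for Nfkb2-/- replicates 1, 2 and 3. Expression is given as TMM-normalised CPM, the count scaled to library size, and 1 count was worth between 0.0187 and 0.0344 CPM. Nfkb2 itself, on chromosome 19, had 215, 154 and 355 CPM in WT replicates 1 to 3 and 44.8, 32.3 and 32.6 CPM in Nfkb2-/- replicates 1 to 3. The genotypes did not overlap, and the transcript still counted in Nfkb2-/- libraries was far above the 0.0561 to 0.103 CPM that 3 counts are worth. The dendritic cell markers fixed for this work were all present in each library. Cd74, the invariant chain of MHC class II and the most abundant of them, ranged from 1870 to 3691 CPM. The erythroid globins Hba-a1 and Hbb-bs had 0 to 3 counts.

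A pair of libraries stood apart. Nfkb2-/- replicate 1 had at least 1 count on 47952 gene IDs, against 27692 to 33841 in the other 5 libraries. WT replicate 3 had the lowest summed level of the 6 macrophage markers, 102 CPM against 634 and 749 CPM in WT replicates 1 and 2 and 439 to 555 CPM in the Nfkb2-/- libraries, and Csf1r, the most abundant of them, was at 37.2 CPM there. None of the 6 macrophage markers passed the test between the genotypes with edgeR or DESeq2, and none had an unadjusted edgeR p under 0.05. WT replicate 3 also had the highest sum of the 6 mature dendritic cell markers, 16205 CPM, against 11425 and 7945 CPM in the other WT libraries and 7794, 7458 and 7036 CPM in Nfkb2-/- replicates 1 to 3. In bulk RNA, fewer cells of a type and less RNA per cell cannot be told apart.

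Cell membranes are first built from phospholipids made de novo and are then edited in what is called the Lands cycle. A phospholipase removes one acyl chain, leaving a lysophospholipid, and an acyltransferase restores a chain from acyl-CoA, which sets how saturated or polyunsaturated the membrane is. In myeloid cells the cycle stores arachidonic acid, the source of prostaglandins and leukotrienes, and an acetyl-transferring branch makes platelet-activating factor (PAF). The 7 genes fall into separate protein families. Lpcat1, Lpcat2, Lpcat4 and Lclat1 belong to the acylglycerophosphate acyltransferase (AGPAT) family, and Lpcat3, Mboat1 and Mboat7 to the membrane-bound O-acyltransferases (MBOAT).

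Since the cells differ in an NF-κB subunit, the promoters of the 7 genes were read for the κB consensus, a 10-base motif searched on both strands in RefSeq windows of GRCm38.p6 that run from 250 bases before to 50 bases after each start. All 7 genes had a window, and 3 of them held the motif, whereas 2779 of 32851 windows of 300 bases did (8.46%). The motif is rich in G and C, and so were the windows of the 7 genes, with 54.7% to 79.0% G and C (mean 66.3%) against a mean of 53.8% over all windows, so the shares are not directly comparable. The stretches of 30 bases around these matches follow on the strand of the gene, with the matched bases in capitals. They lie at chr13:73467177-73467206 (plus strand) for Lpcat1, chr13:30136453-30136482 (plus strand) for Mboat1 and chr7:3692955-3692984 (minus strand) for Mboat7.
Lpcat1: cggtctgggcGGGGCACCCCgttggcccca
Mboat1: ctcctcctccGGGGCGTCCCcggctgctgg
Mboat7: ctctttgcccGGGGACCTCCtagaaagatc
The match began 44 bases before the RefSeq start of Lpcat1 and 27 bases before that of Mboat1, where it read as the motif on either strand, and 12 bases after that of Mboat7. The windows of Lpcat2, Lpcat3, Lpcat4 and Lclat1 did not hold these letters. For Lpcat4 (chr2:112239591-112239890) and Mboat7 (chr7:3692937-3693236) the window lay wholly inside the annotated span of the gene. Sequence before the outermost annotated start of these genes was thus not read. A match is a description of the sequence and not a binding site.

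Lpcat4, which encodes an acyltransferase that acts mainly on lysophosphatidylethanolamine and lysophosphatidylcholine, was the member with the clearest separation. Its level was 19.9, 20.4 and 19.1 CPM in WT replicates 1 to 3 and 68.9, 60.5 and 62.6 CPM in Nfkb2-/- replicates 1 to 3. All 3 Nfkb2-/- libraries lay far above all 3 WT libraries, with a gap of 40.1 CPM between the nearest of them. The means were 19.8 ± 0.684 CPM in WT and 63.99 ± 4.37 CPM in Nfkb2-/- cells (SD, n = 3 each), a ratio of 3.23 and a log2 fold change of 1.69 ± 0.14 (SE, edgeR). These values rested on 554 to 837 counts in WT and 1835 to 3346 counts in Nfkb2-/- libraries. Without Nfkb2-/- replicate 1 the log2 fold change was 1.63, and over the 6 fits that each left out 1 library it ran from 1.63 to 1.72. Lpcat4 lies at chr2:112239468-112247111 on the plus strand (GRCm38), and no exon of another annotated gene overlaps its exons.

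**Figure D1:**
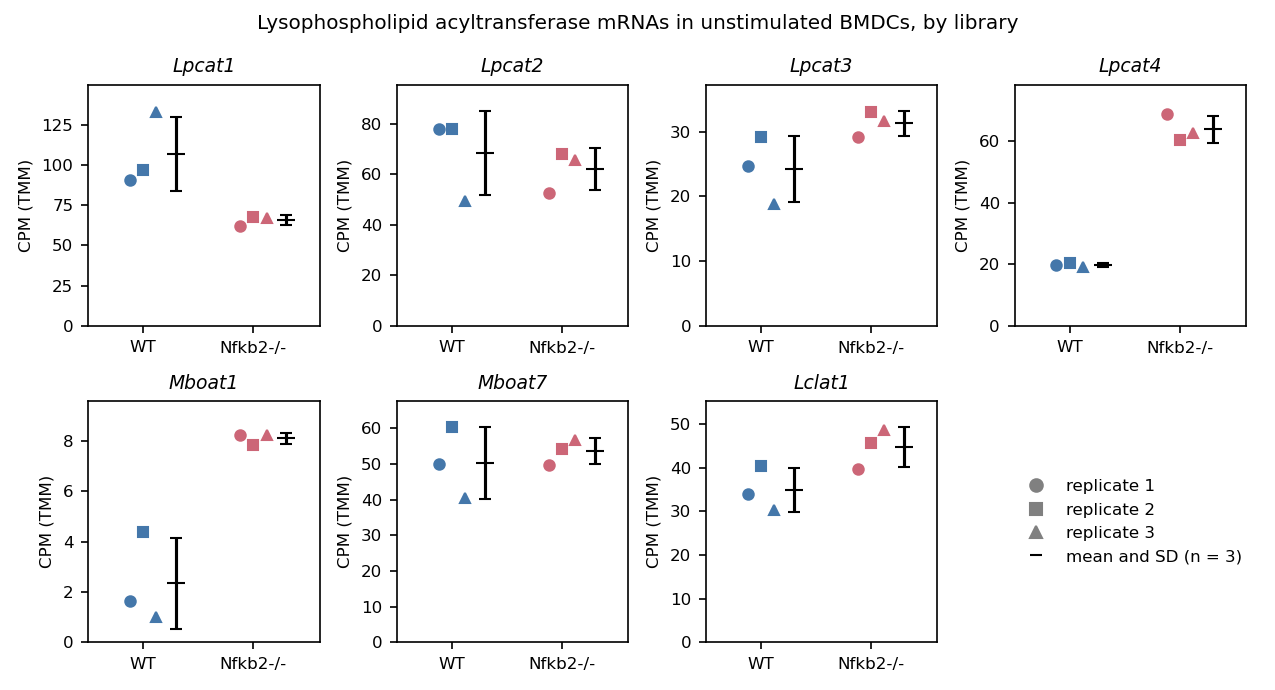
TMM-normalised CPM (y axis, from 0) of the 7 acyltransferase genes in each of 3 WT and 3 Nfkb2-/- libraries, with marker shape giving the replicate and the black bar the mean and SD. Lpcat4 sits between 19.1 and 20.4 CPM in the WT libraries and between 60.5 and 68.9 CPM in the Nfkb2-/- libraries, Mboat1 and Lpcat1 are also apart, and WT replicate 3 (triangle) is the lowest WT library for 6 of the 7 genes.

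The other members of the AGPAT family did not share this pattern. Lpcat1 encodes the enzyme best known for making dipalmitoyl phosphatidylcholine of lung surfactant. Its level was 90.6, 96.5 and 133 CPM in WT and 61.9, 67.8 and 66.8 CPM in Nfkb2-/- replicates 1 to 3. Every Nfkb2-/- library was below every WT library, the opposite order to Lpcat4, with means of 107 ± 22.8 and 65.5 ± 3.17 CPM (SD, n = 3 each). The log2 fold change was -0.70 ± 0.18 (SE), and it ran from -0.81 to -0.51 as each library was left out in turn. WT replicate 3, with the fewest macrophage and most mature dendritic cell transcripts, had the highest Lpcat1, and the part of culture make-up in this difference was not tested. Lpcat1 lies at chr13:73467197-73516422 on the plus strand, with no overlapping exon of another gene.

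Lpcat2 encodes the inducible enzyme of inflammatory cells that both acylates lysophosphatidylcholine and acetylates lyso-PAF to PAF. Its level was 78.2, 78.1 and 49.4 CPM in WT and 52.6, 68.1 and 65.8 CPM in Nfkb2-/- libraries. All 3 Nfkb2-/- libraries lay within the range of the WT libraries. The lowest of all 6 was WT replicate 3 and the next lowest Nfkb2-/- replicate 1, so the libraries that stood apart were also the low ones here. The log2 fold change was -0.14 ± 0.22 (SE). Lclat1, whose product acts on lysocardiolipin and lysophosphatidylinositol, had 34.0, 40.3 and 30.3 CPM in WT and 39.7, 45.7 and 48.7 CPM in Nfkb2-/- libraries. Only WT replicate 2 and Nfkb2-/- replicate 1 crossed, narrowly, and the log2 fold change was 0.36 ± 0.17 (SE). Lpcat2 lies at chr8:92855339-92919279 and Lclat1 at chr17:73107985-73243368, both on the plus strand, and 287 exon bases of Lpcat2 (8.47%) overlap the antisense gene Gm45472, which had 29 to 59 counts per library.

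Among the MBOAT enzymes, Mboat1, which prefers lysophosphatidylethanolamine and lysophosphatidylserine with oleoyl-CoA, was the other member that was several times higher in Nfkb2-/- cells, from a much lower level. It had 1.66, 4.40 and 0.998 CPM in WT libraries, on 70, 143 and 29 counts. In Nfkb2-/- libraries it had 8.24, 7.84 and 8.21 CPM, on 279, 238 and 439 counts. The Nfkb2-/- libraries were nearly equal, while the WT libraries spread 4.41-fold, with replicate 2 the highest. The means were 2.35 ± 1.80 and 8.10 ± 0.222 CPM (SD, n = 3 each) and the log2 fold change was 1.78 ± 0.50 (SE), so that this difference was as large as that of Lpcat4 and far less precise. Leaving out WT replicate 2 gave 2.59, and leaving out WT replicate 3 gave 1.43, the highest and lowest values of the 6 such fits. Mboat1 lies at chr13:30136489-30246717 on the plus strand.

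Lpcat3 encodes the main enzyme that brings linoleoyl and arachidonoyl chains into phosphatidylcholine, and is a known target of the oxysterol receptor LXR. It had 24.7, 29.2 and 18.9 CPM in WT and 29.2, 33.0 and 31.6 CPM in Nfkb2-/- libraries. The genotypes were apart by only 0.051 CPM, between WT replicate 2 and Nfkb2-/- replicate 1, which is far under the WT SD of 5.15 CPM. The log2 fold change was 0.37 ± 0.19 (SE). Lpcat3 shares 334 bases (10.2% of its exon length) with exons of Emg1, a ribosome biogenesis gene on the opposite strand whose log2 fold change was 0.61 ± 0.20 (SE), and use of strand in the counting is not given in the sources used here. Mboat7, which places arachidonoyl chains on phosphatidylinositol, had 50.1, 60.5 and 40.4 CPM in WT and 49.8, 54.3 and 56.8 CPM in Nfkb2-/- libraries. The highest and the lowest of its 6 values were both WT, and its log2 fold change was 0.09 ± 0.18 (SE), next to the median of 0.08 over all genes tested. Lpcat3 lies at chr6:124663027-124704418 on the plus strand and Mboat7 at chr7:3677789-3693523 on the minus strand, where 277 of its exon bases (3.32%) overlap those of Tsen34 on the other strand.

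**Figure D2:**
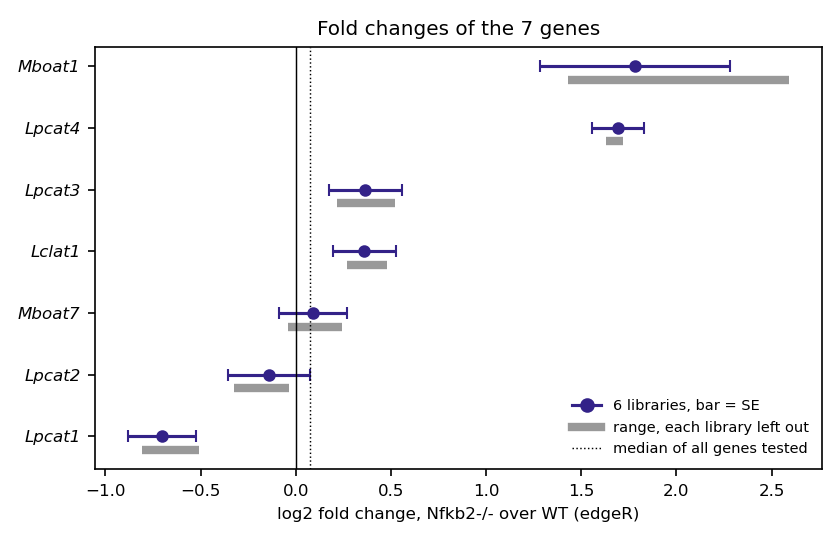
Log2 fold change of Nfkb2-/- over WT (x axis) for each of the 7 genes, from edgeR over 6 libraries with the SE as a bar, and in grey the range over the 6 fits that leave out 1 library each. Lpcat4 (1.69) and Mboat1 (1.78) stand apart to the right and Lpcat1 (-0.70) to the left, and the grey range is narrow for Lpcat4 (1.63 to 1.72) and wide for Mboat1 (1.43 to 2.59). The dotted line is the median of all genes tested.

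Set beside the whole table, 1 of the 7 genes (Lpcat4, higher) was among the genes that passed edgeR's quasi-likelihood test at a Benjamini-Hochberg adjusted p under 0.05 and a fold change over 1.2. Of the 21849 genes tested, 1.14% passed, 0.453% higher and 0.682% lower in Nfkb2-/- cells. The genotypes did not overlap for 4 of the 7 (Lpcat3, Lpcat4 and Mboat1 higher, Lpcat1 lower), against 24.7% of all genes tested. The log2 fold change was above 0 for 5 of the 7, with a median of 0.36, against 55.7% above 0 and a median of 0.08 over all genes. The selection used this contrast, so nothing is read from these counts. The spread within a genotype was smaller in Nfkb2-/- than in WT libraries for 6 of the 7 genes, all but Lpcat4, measured as the highest over the lowest CPM, and for 52.7% of all genes with counts in every library. WT replicate 3 was the lowest WT library for 6 of the 7, all but Lpcat1. The share of all genes for which this held was not computed, so it is not read as a trait of these genes.

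Between genes, levels were compared as CPM per kb of merged exons, within a library. In WT cells the order of mean levels was Lpcat1 (23.0), Lpcat2 (20.2), Lpcat3 (7.42), Lclat1 (7.12), Lpcat4 (7.01), Mboat7 (6.04) and Mboat1 (0.643). In Nfkb2-/- cells it was Lpcat4 (22.7), Lpcat2 (18.3), Lpcat1 (14.1), Lpcat3 (9.57), Lclat1 (9.14), Mboat7 (6.43) and Mboat1 (2.21). Lpcat1 led the WT mean through replicate 3 alone, and Lpcat2 was above it in the other 5 libraries. In the WT libraries Lpcat4 was the fourth, the sixth and the third in replicates 1, 2 and 3, close to Lpcat3, Lclat1 and Mboat7, and it was the first in every Nfkb2-/- library. In every one of the 6 libraries Lpcat1 and Lpcat2 were above Lpcat3, Lclat1 and Mboat7, which were in turn above Mboat1.

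Over all 6 libraries together the order, which the selection did not use except through the level of Lpcat4, was Lpcat2, Lpcat1, Lpcat4, Lpcat3, Lclat1, Mboat7 and Mboat1. Each of the 6 neighbour pairs in this order was tested with a two-sided exact paired permutation test of the log2 ratio over the libraries. The smallest p that this test allows is 0.03125. The order came from the same 6 libraries, so the direction of each pair was largely set by the sorting and is not a finding of the test. Lclat1 was above Mboat7 in 6 of 6 libraries, by a mean ratio of 1.30, and Mboat7 above Mboat1 in 6 of 6, by 5.71 (exact permutation p = 0.03125, Benjamini-Hochberg adjusted p = 0.0938 for both). Both ratios pool unlike genotypes. That of Lclat1 over Mboat7 was 1.16, 1.13 and 1.28 in WT and 1.36, 1.44 and 1.46 in Nfkb2-/- replicates 1 to 3. That of Mboat7 over Mboat1 was 13.3, 6.04 and 17.7 in WT and 2.65, 3.03 and 3.04 in Nfkb2-/- replicates 1 to 3. Per kb of merged exons, Lpcat2 was above Lpcat1 in 5 of 6 libraries and Lpcat3 above Lclat1 in 4 of 6. Neither pair differed beyond the spread between libraries at this length (exact permutation p = 0.75 and 0.21875). Per kb of the longest transcript, Lpcat3 was above Lclat1 in 6 of 6, by a mean ratio of 1.31 (exact permutation p = 0.03125, Benjamini-Hochberg adjusted p = 0.0625). The pairs with Lpcat4 mix the genotypes that chose it: Lpcat1 was above Lpcat4 in all 3 WT libraries and below it in all 3 Nfkb2-/- libraries, so their pooled test says nothing of their order. The place of Mboat7 depended on the length used, since its merged exons cover 8339 bases and its longest transcript 3399: per kb of the longest transcript it came before Lpcat3 and Lclat1 in every library.

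**Figure D3:**
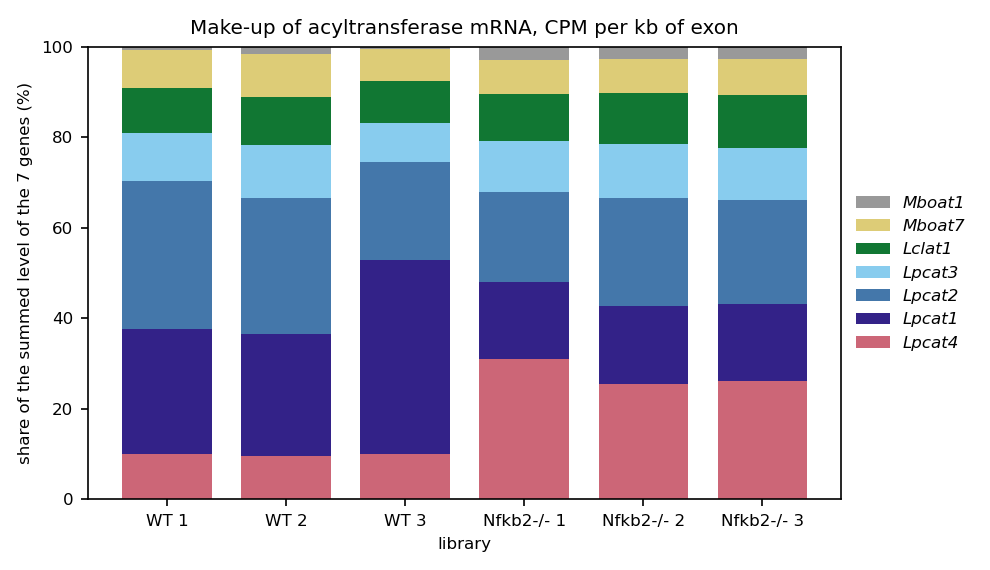
Share (%) of each gene in the summed level (CPM per kb of merged exons) of the 7 acyltransferase genes, as stacked bars for each of the 6 libraries. The Lpcat4 share at the bottom is from 9.43% to 10.1% in the 3 WT libraries and from 25.4% to 31.1% in the 3 Nfkb2-/- libraries, while the Lpcat1 share above it is smaller in each Nfkb2-/- library than in any WT library.

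The make-up and the total of the family are given as a description, since the choice of Lpcat4 for its higher level fixed that its share would be larger in Nfkb2-/- cells. The summed level of the 7 genes was 70.7, 76.7 and 67.0 CPM per kb in WT and 78.6, 84.3 and 84.7 CPM per kb in Nfkb2-/- libraries. The genotypes were apart by less than the range within either, with means of 71.5 ± 4.90 and 82.5 ± 3.42 CPM per kb (SD, n = 3 each). The share of Lpcat4 in this sum was 9.95%, 9.43% and 10.1% in WT and 31.1%, 25.4% and 26.2% in Nfkb2-/- libraries. Lpcat1 held 27.7%, 27.2% and 42.7% in WT and 17.0%, 17.4% and 17.0% in Nfkb2-/- libraries. A share in a closed sum goes down when another goes up, and the CPM of Lpcat1 given above was lower on its own. The mean share of Lpcat2 was 28.1% in WT and 22.2% in Nfkb2-/- cells, and that of Mboat1 0.872% and 2.69%. The mean shares of Lpcat3, Lclat1 and Mboat7 were 10.3%, 9.93% and 8.40% in WT and 11.6%, 11.1% and 7.79% in Nfkb2-/- cells.

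The genes next to the members were examined for differences over the same stretch of chromosome. Of 3 tested genes that start within 100 kb of Lpcat4, none passed edgeR's test (1 at an unadjusted p under 0.05). Nop10, a component of H/ACA ribonucleoproteins, was nearest to doing so, with 12.9, 12.2 and 15.1 CPM in WT, 24.8, 18.4 and 20.99 CPM in Nfkb2-/- libraries and a log2 fold change of 0.68 ± 0.18 (SE, adjusted p = 0.123 by edgeR and 0.0232 by DESeq2). Its difference was smaller than that of Lpcat4 in the same direction. Around Lpcat3, 1 of 9 genes passed edgeR's test, 3 had an unadjusted p under 0.05, and the genotypes did not overlap for 4. The gene that passed was Eno2, the neuronal form of the glycolytic enzyme enolase. It fell from 20.2, 15.3 and 23.6 CPM to 5.52, 3.16 and 3.55 CPM (log2 fold change -2.27 ± 0.28 SE, adjusted p = 0.0307, edgeR), against a Lpcat3 value that was slightly higher. None of the 11 genes tested around Mboat7, 4 around Lpcat2, 2 around Lpcat1 and 2 around Lclat1 passed with edgeR, and none was tested around Mboat1. Prpf31, a splicing factor gene near Mboat7, was the 1 of these 19 with an unadjusted p under 0.05, and it passed with DESeq2. With edgeR, no gene of the whole table passed once WT replicate 1 or any Nfkb2-/- replicate was left out, Eno2 included. None of the 7 members lies on chromosome 19 with Nfkb2.

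The genes whose log2 CPM followed that of Lpcat4 most closely over the 6 libraries, out of 14514 whose mean reached 1 CPM in each genotype, were Prdx6, Cd52, Slc11a2, Bop1 and Neurl1a, with Pearson r from 0.994 to 0.998. The 6 points share the genotype split, so that r mostly says that the libraries within a genotype were close to each other, and no test is given. Prdx6, a peroxiredoxin, had 45.7, 47.1 and 46.7 CPM in WT and 83.9, 76.1 and 78.7 CPM in Nfkb2-/- libraries. Cd52, a short GPI-anchored surface glycoprotein of leukocytes, had 234, 230 and 222 CPM in WT and 578, 574 and 586 CPM in Nfkb2-/- libraries. Their log2 fold changes were 0.77 and 1.34, so the likeness is in pattern and not in size. Slc11a2, the divalent metal transporter DMT1, and Bop1, a ribosome biogenesis factor, had log2 fold changes of 0.66 and 0.63, and Neurl1a, a ubiquitin ligase, 3.07.

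The rest of phospholipid metabolism was read from 5 lists with 123 genes, of which 117 were tested. With edgeR, 3 of the 117 passed (2.56%, against 1.14% of all genes), 1 higher and 2 lower in Nfkb2-/- cells. With DESeq2, the tool of the study, 17 passed (14.5%, against 8.65% of all genes), 11 higher and 6 lower. The median log2 fold change of the 117 was 0.09, against 0.08 over all genes, and the genotypes did not overlap for 32 of them (27.4%, against 24.7% of all genes).

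Among other glycerolipid acyltransferases, none of 20 tested genes passed edgeR's test (3 at an unadjusted p under 0.05, a level that 17.1% of all genes tested reached). DESeq2 passed 1, Gpat2, a mitochondrial glycerol-3-phosphate acyltransferase, which was higher in Nfkb2-/- cells. The most abundant were Soat1, the acyltransferase that esterifies cholesterol, Lpgat1, which acts on lysophosphatidylglycerol, and Gnpat, which starts ether lipid synthesis. Soat1 had 376, 371 and 101 CPM in WT and 223, 304 and 297 CPM in Nfkb2-/- libraries, and WT replicate 3 alone was low. Lpgat1 and Gnpat had log2 fold changes of 0.09 and 0.14, and their genotypes overlapped. Mboat2, the closest relative of Mboat1, was barely present, with 0.071 to 0.264 CPM in 5 libraries and 2.66 CPM in Nfkb2-/- replicate 1.

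The genes of acyl-CoA supply and fatty acid desaturation, which make the chains that the acyltransferases use, had a median log2 fold change of 0.39 over 26 genes tested, and of 0.17 over the 22 whose mean reached 1 CPM, a limit chosen after the data were seen, at which the median of all genes was -0.01. Fads2, the delta-6 desaturase at the entry of polyunsaturated fatty acid synthesis, rose in Nfkb2-/- cells and was the only one of 26 tested to pass with edgeR, while 10 had an unadjusted p under 0.05. It had 7.85, 11.4 and 6.71 CPM in WT and 25.1, 22.2 and 31.7 CPM in Nfkb2-/- libraries, without overlap (log2 fold change 1.61 ± 0.25 SE, adjusted p = 0.0420, edgeR). Fads1, the delta-5 desaturase beside it, had a log2 fold change of -0.23 and overlapping genotypes. DESeq2 passed 7 of the 26, with Fads2, Scd1, Scd2, Elovl1, Elovl5 and Elovl6 higher and Acot2, a mitochondrial acyl-CoA thioesterase, lower. These genes were named after their values were seen. Scd1 and Scd2 encode the delta-9 desaturases that make oleoyl chains, and the Elovl genes encode fatty acid elongases.

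The calls of the stearoyl-CoA desaturases depended on tool, filter and library. Scd2 had 62.2, 149 and 67.3 CPM in WT and 216, 299 and 334 CPM in Nfkb2-/- libraries, a log2 fold change of 1.61 ± 0.37 (SE), with an adjusted p of 0.0916 by edgeR and 0.000734 by DESeq2. Scd1 had 52.0, 54.6 and 74.1 CPM in WT and 107, 129 and 116 CPM in Nfkb2-/- libraries, with an adjusted p of 0.0596 by edgeR. Both were without overlap. With edgeR itself, Scd1 passed without TMM, with filterByExpr, with at least 10 counts in every library and without WT replicate 3, and Scd2 with no filter and without WT replicate 2. Of 14 alternative settings, with DESeq2 and limma voom among them, Scd1 and Acot2 each passed in 6. Elovl1 passed in 5 of them, Scd2 in 4, Elovl6 in 3 and Elovl5 in 1. Scd1 and Scd2 lie 1.91 and 2.01 Mb from Nfkb2 on chromosome 19, and whether linked sequence differed between the genotypes was not tested. Acsl4, the acyl-CoA synthetase that prefers arachidonic acid and the most abundant gene of the list, had 211, 233 and 213 CPM in WT and 171, 292 and 297 CPM in Nfkb2-/- libraries, and overlapped.

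In de novo phospholipid synthesis, 2 of 26 tested genes passed with edgeR, both lower in Nfkb2-/- cells. Chka, the choline kinase that commits choline to phosphatidylcholine, fell from 278, 204 and 296 CPM to 104, 95.0 and 106 CPM (log2 fold change -1.35 ± 0.18 SE, adjusted p = 0.0332, edgeR). Lpin2, a phosphatidate phosphatase that yields diacylglycerol, fell from 74.1, 73.0 and 69.6 CPM to 37.5, 39.9 and 39.6 CPM (log2 fold change -0.89 ± 0.13 SE, adjusted p = 0.0382, edgeR). The genotypes did not overlap for either, and the WT libraries were close together for Lpin2 but not for Chka. Etnk1, the ethanolamine kinase and most abundant gene of the list, had a log2 fold change of 0.01 ± 0.16 (SE), and Cds2, which makes CDP-diacylglycerol, one of 0.63 ± 0.19 that passed with DESeq2 and, with edgeR, only when WT replicate 2 was left out. The list's median was 0.27, and 0.28 over the 23 genes whose mean reached 1 CPM, above 0 although both genes that passed with edgeR were lower. The edgeR calls of Fads2, Chka and Lpin2 were lost without WT replicate 1 and without each Nfkb2-/- replicate, at adjusted p-values from 0.0843 to 0.217, and that of Fads2 also without WT replicate 3 (0.0538), while their log2 fold changes stayed within 1.46 to 1.85, -1.50 to -1.25 and -0.96 to -0.80.

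**Figure D4:**
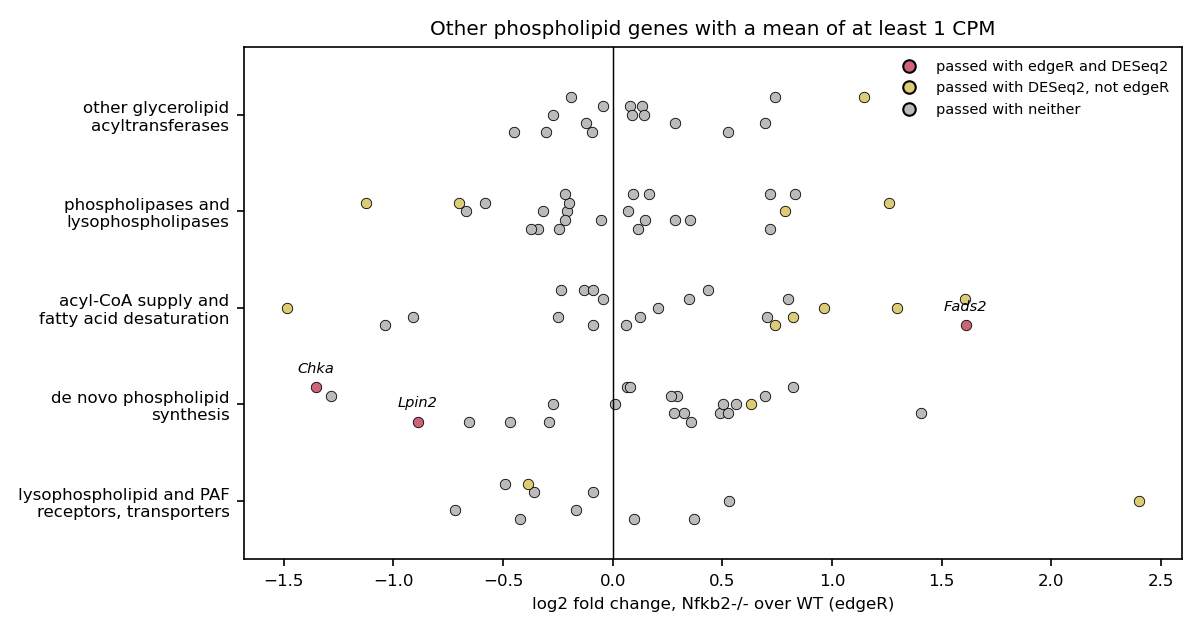
Log2 fold change of Nfkb2-/- over WT (x axis, edgeR) for the 97 genes of the 5 phospholipid lists whose mean reached 1 CPM, 1 point per gene, coloured by which test it passed. Points spread to both sides of 0 in every list, Fads2, Chka and Lpin2 are the genes that passed with edgeR, and 6 of the 7 genes of acyl-CoA supply and desaturation that passed with DESeq2 lie to the right.

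Among the phospholipases and lysophospholipases, which make or break down lysophospholipids or their products, none of 30 tested genes passed with edgeR (6 at an unadjusted p under 0.05, and 4 that passed with DESeq2). Gpcpd1, a glycerophosphodiesterase and the most abundant of them, had 702, 502 and 1068 CPM in WT and 261, 396 and 383 CPM in Nfkb2-/- libraries (log2 fold change -1.13 ± 0.31 SE, adjusted p = 0.131 by edgeR and 0.00976 by DESeq2). Pnpla8, a calcium-independent phospholipase, and Pafah1b1, a subunit of PAF acetylhydrolase also known as Lis1, had log2 fold changes of -0.67 and -0.22. DESeq2 also passed Plbd1 and Pla2g15, the lysosomal phospholipase A2, higher, and Tmem86a, a lysoplasmalogenase, lower. For the receptors and transporters of lysophospholipids and PAF, none of 15 passed with edgeR (4 at an unadjusted p under 0.05). The PAF receptor gene Ptafr had 106, 99.6 and 100 CPM in WT and 74.4, 79.9 and 80.0 CPM in Nfkb2-/- libraries, and Mfsd2a, a lysophosphatidylcholine importer, had 0.759, 2.83 and 1.27 CPM in WT and 10.2, 6.39 and 8.999 CPM in Nfkb2-/- libraries. Neither overlapped between genotypes, and they passed with DESeq2 and not with edgeR at the filter of 50 counts, Ptafr lower and Mfsd2a higher. With no filter, with at least 10 counts in every library or without WT replicate 2, edgeR passed Mfsd2a too. P2ry10 and Gpr132, the most abundant receptors of the list, overlapped.

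Among the cell type markers, Itgax (CD11c) was the 1 dendritic cell marker of 6 to pass, with 160, 277 and 123 CPM in WT and 745, 769 and 716 CPM in Nfkb2-/- libraries (log2 fold change 1.99, adjusted p = 0.0414, edgeR), and 3 of the 6 had an unadjusted p under 0.05. Zbtb46, a transcription factor of conventional dendritic cells, lay the other way without overlap (log2 fold change -0.54, adjusted p = 0.192, edgeR), Ciita, the transactivator of MHC class II genes, was higher without overlap (0.50, adjusted p = 0.254, edgeR), and Flt3, H2-Ab1 and Cd74 had values of -0.17, 0.13 and 0.12. None of the 6 mature dendritic cell markers passed with edgeR (5 at an unadjusted p under 0.05, and 2 with DESeq2), although all 6 had log2 fold changes under 0 with a median of -0.86, and Ccl22 was the most abundant. Cpa3, a mast cell protease, was the 1 of 5 mast cell and basophil markers tested to pass, and it was lower (log2 fold change -1.84, adjusted p = 0.0413, edgeR), while Kit, the most abundant of them, had a log2 fold change of 0.18. None of the granulocyte, erythroid or stromal and epithelial markers passed with edgeR (1 granulocyte marker at an unadjusted p under 0.05, which DESeq2 passed as lower), and their most abundant genes were S100a8, Alas2 and Col1a1. The part of these markers in the values of the 7 acyltransferases was not tested. Without WT replicate 3 the log2 fold changes of Lpcat4, Mboat1 and Lpcat1 were 1.67, 1.43 and -0.51. Without Nfkb2-/- replicate 1 they were 1.63, 1.76 and -0.67.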

How the data were processed

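Poly(A) RNA-seq of resting BMDCs was analysed for 3 WT and 3 Nfkb2-/- libraries, with genotype and replicate taken from the labels. The authors counted reads per Ensembl gene, and the deposited values are whole-number counts per library without normalization. The submitters' processing notes name HISAT2 and the builds GRCm38 and mm10. The counting tool, the annotation and the use of strand are not given in the sources used here. A table that joins the 6 libraries was not used.

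Counts of genes with a GENCODE M21 name and at least 50 counts over the 6 libraries were kept, and IDs without a name held 1.01% to 1.75% of a library's counts. Genotypes were compared with TMM normalization and the quasi-likelihood test of edgeR 4.0.16 in R 4.3.3, without covariates and with Benjamini-Hochberg adjustment over 21849 genes. A gene was called at an adjusted p under 0.05 and a fold change over 1.2. Standard errors are the log2 fold change over the square root of F. Log2 CPM used a prior count of 2. The procedure was tested on simulated data. Level orders were tested with exact permutation tests in scipy 1.17.1.

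Alternatives were DESeq2 1.42.0, limma 3.58.1 (voom), RLE factors, no TMM, other filters, the replicate block, the longest transcript as length and leaving out each library. The members and all lists were chosen with earlier results of these data known. Named genes are every member, Nfkb2, called genes of each list (at most 5), its 3 most abundant genes, called genes within 100 kb of a member, the 5 genes most like Lpcat4 and the most abundant gene of each marker list. The lymphocyte marker list is not reported here. Others named were chosen after their values were seen. Promoter windows came from RefSeq (GRCm38.p6).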

Additional observations from a re-analysis of the deposited data

How the results depend on the processing

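The number of genes called over the whole table, 248 by edgeR, depended strongly on the tool and filter: 1890 with DESeq2, 488 with limma voom, 397 with filterByExpr, 1625 when genes with a single count were kept and 459 with at least 10 counts in every library. The phospholipid list genes called, 3 by edgeR, became 17, 8, 6, 11 and 7 under the same 5 settings. Scaling mattered less, with 239 genes called under RLE factors and 247 without TMM, although without TMM the calls of Fads2 (adjusted p = 0.0502, edgeR) and Lpin2 (0.0556) were lost and that of Scd1 was gained, which left 2 list genes called. Leaving out 1 library gave 0 to 1248 genes called and 0 to 15 list genes. The count was 0 without WT replicate 1 (2325 genes at an unadjusted edgeR p under 0.05), Nfkb2-/- replicate 1 (4088), Nfkb2-/- replicate 2 (2580) or Nfkb2-/- replicate 3 (2726), 1248 without WT replicate 2 and 270 without WT replicate 3.

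With the replicate block in edgeR, 0 genes and 0 list genes were called (3331 genes at an unadjusted p under 0.05). The deviations of same-numbered libraries from their group means correlated at 0.262, 0.148 and 0.0224. The labels do not say whether same-numbered libraries were paired. Deviations from means of 3 libraries cannot decide it, so the fit with the block and the fit without it are both given. WT replicates 1 and 3 correlated best with their own number and WT replicate 2 with Nfkb2-/- replicate 3 (0.164).

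The log2 fold change of Lpcat4, 1.69, was 1.79 without TMM and 1.61 with no filter, both by edgeR, 1.69 with the block and 1.63 to 1.72 over the fits that left out a library. Mboat1 ran from 1.43 to 2.59, and Mboat7 alone of the 7 changed sign, in 1 of 14 alternatives, within -0.04 to 0.24. Of the 6 neighbour pairs of levels, 2 held in every library. With the longest transcript as length the order itself changed, 3 of its 6 neighbour pairs held in every library, and Lclat1 was below Mboat7 in 6 of 6. The lowest count of a member in a library was 29, of Mboat1 in WT replicate 3, and no fit at matched depth was run.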

Other observations

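The totals of WT replicate 2 and Nfkb2-/- replicate 2 were nearly equal, 31622131 and 31622146 counts, although the libraries differed in content, with 664 and 1835 counts of Lpcat4 and 143 and 238 counts of Mboat1.

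Fads1, Fads2 and Fads3, desaturase genes that lie side by side on chromosome 19, had log2 fold changes of -0.23, 1.61 and -0.25, so the middle gene alone was higher in Nfkb2-/- libraries. Elsewhere on the same chromosome, Acsl5 and Gpam had log2 fold changes of -0.04 and 0.08, Scd1 and Scd2 0.96 and 1.61, and Pla2g16 -0.58. Chka, which passed with edgeR, also lies on it, at -1.35.

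Soat1 and Pla2g4a, the cytosolic phospholipase that releases arachidonic acid, were low in WT replicate 3 alone, at 101 and 3.34 CPM, against 371 to 376 and 15.3 to 17.3 CPM in the other WT libraries. That library also had the lowest macrophage marker sum, and the part of those markers in these values was not tested.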
